A study of Mus musculus with 4 samples.

Results

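The comparison described here sets liver of G37H mice against liver of wild-type mice. It is 1 of 4 columns of the series, each a comparison of a mutant line with wild type, and its members are the 9285 genes that had at least 1 probe annotated with a single gene. G37H mice carried 16 copies of a transgene for the selenocysteine tRNA in which A37 was replaced by G37. The control mice are labelled wild type, or Trsp after the gene of this tRNA. All animals were male littermates of B6/FVB background, 7 to 8 weeks old, and were fed a selenium-sufficient diet. The G37H values are the authors' average over 3 biological replicates, with 1 replicate per 2-colour array. Wild-type RNA was labelled with Cy3 and G37H RNA with Cy5, so effects of dye and of genotype cannot be told apart. Values of 3 other lines stand beside those of G37H. G37L mice carried 2 copies of the same transgene, A34 mice 2 copies of a transgene with T34 replaced by A34, and DTrsp mice had no Trsp gene in the liver, each averaged over 4 replicates. The labels leave unsaid whether livers with a transgene also lacked their own Trsp, which promoter drove the transgene, what was passaged in the several passages they mention before harvest, or whether wild-type animals were shared between comparisons. The columns may therefore share control samples, and no overlap or correlation between them is given as a result.

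Selenocysteine is inserted into selenoproteins at UGA codons, which otherwise end translation, by a dedicated tRNA. This tRNA carries an isopentenyl group on the adenosine next to its anticodon, the base that is a guanosine in the G37H transgene, and a modified wobble uridine that can be methylated. The methylated form is known for its link to selenoproteins that follow selenium supply, such as the glutathione peroxidases Gpx1 and Gpx3, while others, such as the thioredoxin reductases, are made with either form. The liver is the main source of Selenop, the plasma protein that carries selenium to other organs.

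Each value is a log ratio made by the authors and is read here as log2 of G37H over wild type. The labels do not state this direction. It is likely from the dye of each channel, although the titles put wild type first, and every sign below would flip if the ratio ran the other way. No source used here gives the base of the logarithm. The largest value, 4.89, is a 29.7-fold ratio in log2 and would be a 133-fold ratio as a natural logarithm. Log10 was set aside, since that value would then be a 78331-fold ratio. Because replicates were averaged before deposit, no gene has an SD, a p-value or an interval, the spread between animals is unknown, and no difference below was tested. A gene was counted as higher or lower where its log2 ratio was at least 1 above or below 0, which is 2-fold. The values are ratios without intensities, so whether a transcript was above background is unknown, and the tissue could not be checked by the level of its markers. Trsp itself had no named probe, so the transgene could not be checked either.

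Most genes of G37H liver lay close to wild type. The median over all genes was -0.11, 50% of genes lay between -0.38 and 0.16, and 73.3% lay within 0.5 of 0. Of the 9285 genes, 258 were higher (2.78%) and 288 lower (3.1%), and at 4-fold the counts were 15 and 7. The column as a whole lay slightly below 0, with 61.6% of genes there. Centred on the column median, 342 genes were higher (3.68%) and 182 lower (1.96%), so the share of higher genes among those counted was 65.3% in place of 47.3%. Centred on 183 abundant transcripts of ribosomal proteins, oxidative phosphorylation, the proteasome and reference genes, whose median was 0.10, 197 were higher (2.12%) and 404 lower (4.35%), a share of 32.8%. The balance of directions therefore depends on the centring. The counts of list members below stand against the shares of 2.78% and 3.1% over all genes. The same counts as deposited were 233 (2.51%) and 368 (3.96%) in G37L, 130 (1.4%) and 42 (0.452%) in A34, and 304 (3.27%) and 150 (1.62%) in DTrsp.

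The decimals of the values show how many arrays an average can rest on. Of all 15478 probes, 42.1% had values that were multiples of the 4-decimal step divided by 3, as an average over 3 arrays gives. A further 14.4% had steps divided by 2, as 2 arrays but not 3 can give. The remaining 43.5% showed no fraction and can rest on 1, 2 or 3 arrays. These groups are called 3-array values, 2-array values and values of unknown array number below. The 3-array values spread least, with an SD over probes of 0.43 against 0.63 for 2-array values and 0.56 for the rest. Among 3-array probes, 0.982% were higher and 1.43% lower by the same threshold. Among 2-array probes the shares were 6.27% and 5.64%. From the share of 3-array values, about 63.1% of all probes rested on 3 arrays, but 20.8% of the probes at least 2-fold higher and 25.6% of those lower. Genes with at least 1 such value numbered 4594 when these values alone were averaged, of which 47 were higher (1.02%) and 63 lower (1.37%).

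**Figure D1:**
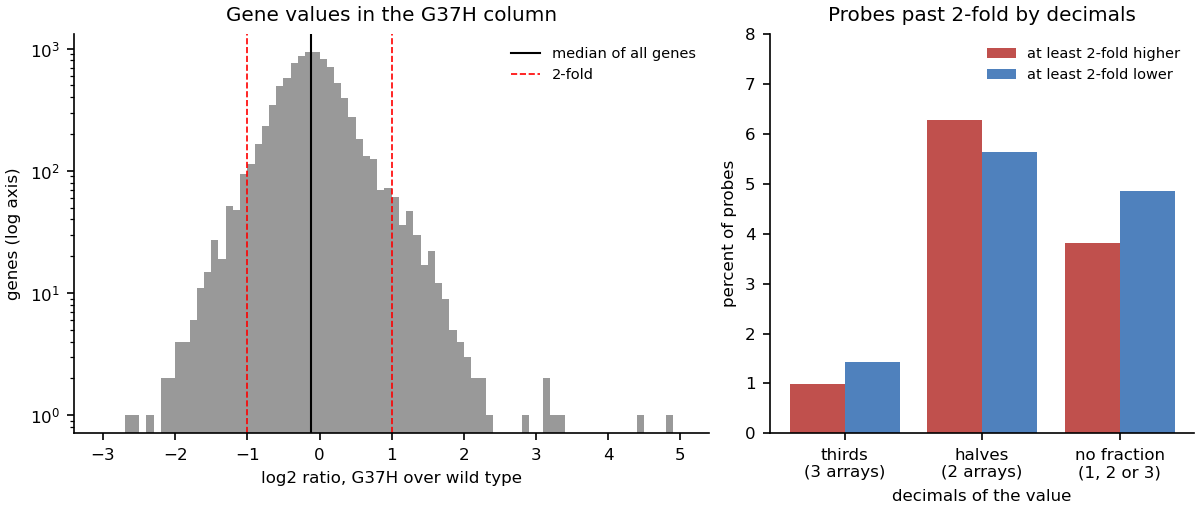
Left, the number of genes (log axis) by log2 ratio of G37H over wild type in bins of the 9285 genes, with the column median of -0.11 as a black line and 2-fold as dashed red lines. Right, the percent of probes at least 2-fold higher or lower by the decimals of their value: 3-array values pass 2-fold least often, at 0.982% and 1.43%.

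Selenoprotein transcripts were mostly below wild type in G37H. Of 24 listed, 19 were measured, 2 of them were lower and 0 higher, and the median was -0.47 against -0.11 over all genes. Relative to the column median, 15 of the 19 lay below it. The 2 lower ones were Selenow at -1.59, a small thioredoxin-like protein, and Txnrd2 at -1.53, the mitochondrial thioredoxin reductase. Both came from 1 probe each with an unknown number of arrays. Selenow was also low in G37L at -1.60, in A34 at -1.47 and in DTrsp at -1.02. Txnrd2 was at -1.42 in G37L, -0.85 in DTrsp and -0.07 in A34, so A34 was the column near 0 for this gene.

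The selenium-dependent peroxidases and reductases of the stress-related class lay below 0 as well. Gpx3, the plasma glutathione peroxidase, was at -0.85, a 2-array value, beside -0.96 in G37L. Gpx1, the abundant cytosolic glutathione peroxidase, had a 3-array value of -0.57, beside -0.95 in G37L, -0.83 in A34 and -0.55 in DTrsp. Msrb1, the methionine sulfoxide reductase, was at -0.69, with probes at -0.82 and -0.56. Its value was -0.28 in G37L and 0.77 in A34. With Selenow these genes make up the stress-related selenoproteins, whose median was -0.77 in G37H, -0.96 in G37L, -0.62 in A34 and -0.41 in DTrsp, and 1 of the 4 passed 2-fold in each column.

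The housekeeping class had no common level. Its 5 measured members of 6 had a median of -0.02, with 1 lower and 0 higher. Txnrd2 was its lowest member. Txnrd1, the cytosolic thioredoxin reductase, was at -0.31, Selenof, a protein of the endoplasmic reticulum, at -0.02, Gpx4, the phospholipid hydroperoxide peroxidase, at 0.14, and Selenop at 0.32. Selenop was the highest of all 19 selenoproteins, and it lay between 0.21 and 0.38 in the other 3 columns. Gpx4 and Selenop were the 2 selenoproteins above 0 in G37H.

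The remaining selenoproteins lay between -0.71 and -0.05. Selenov was at -0.71 and Gpx2, the peroxidase of epithelia, at -0.54. Selenos, which takes part in the removal of misfolded proteins from the endoplasmic reticulum, was at -0.62 against 0.50 in G37L. Selenok, of the same membrane, was at -0.21 against 0.61 in G37L. Dio1, the deiodinase that activates thyroid hormone in liver, was at -0.51, with its 3 probes between -0.84 and -0.33. Selenoo was at -0.47, Selenon at -0.29, Selenoi at -0.15 and Dio2 at -0.05. Sephs2, which makes the selenium donor and is itself a selenoprotein, was at -0.25, while it was at 1.21 in A34 and 1.09 in DTrsp. Over the 8 selenoproteins with a 3-array value the median was -0.28, and 0 of the 8 were past 2-fold. Txnrd3, Dio3, Selenoh, Selenom and Selenot had no probe here.

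Genes that make and use the selenocysteine tRNA had a median of -0.08 over 12 measured of 14, with 1 higher and 0 lower. The higher one was Sephs1, a relative of Sephs2 that holds no selenocysteine, with a 2-array value of 1.08 beside 1.14 in G37L, 0.43 in A34 and -0.01 in DTrsp. Centred on abundant transcripts Sephs1 was at 0.98, short of 2-fold. Trnau1ap, a binding protein of this tRNA, was at -0.75 and -0.72 in G37H and G37L. Trit1, the enzyme that adds the isopentenyl group to the adenosine changed in this transgene, was at -0.45, beside -0.87 in DTrsp. Of the synthesis enzymes, the seryl-tRNA synthetase Sars was at -0.40, the selenocysteine synthase Sepsecs at -0.09, the kinase Pstk at -0.08 and the selenocysteine lyase Scly at 0.14. Of the proteins that bind the selenocysteine insertion element of the mRNA, Secisbp2 was at 0.13, Secisbp2l at -0.47, the ribosomal protein Rpl30 at -0.07, nucleolin (Ncl) at -0.55 and Eif4a3 at -0.01. Selenoprotein mRNAs can be substrates of nonsense-mediated decay. Its 10 measured factors of 16 had a median of -0.18 with none past 2-fold, from Smg1 at -0.76 and Upf1 at -0.35 to Etf1 at 0.21.

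**Figure D2:**
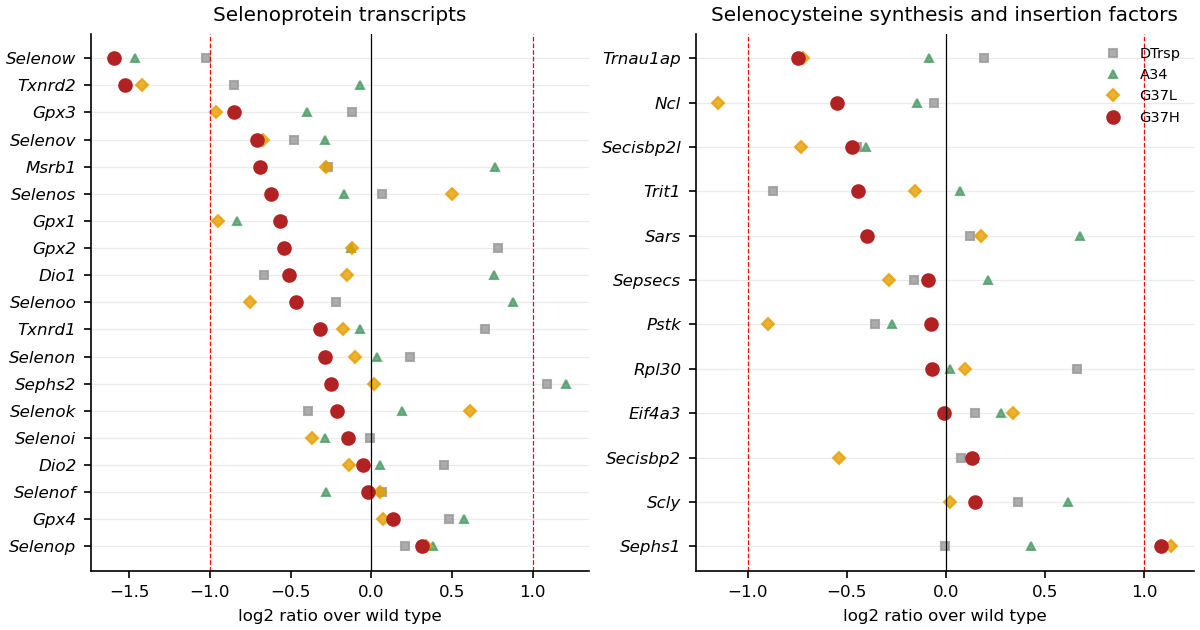
Log2 ratio over wild type (x axis) of 19 selenoproteins (left) and 12 selenocysteine synthesis and insertion factors (right), with G37H as red circles, G37L as orange diamonds, A34 as green triangles and DTrsp as grey squares, each point 1 averaged value. In G37H 17 of 19 selenoproteins lie left of 0, with Selenow and Txnrd2 past 2-fold (dashed), and Sephs1 at 1.08 lies right of it.

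Metallothioneins were among the highest genes of the column. They bind zinc and copper through cysteines and are induced by metals, glucocorticoids and inflammation. Mt2 was at 4.43, a 21.5-fold ratio, Mt4 at 3.32 and Mt1 at 3.16, while Mt3, known mainly from brain, was at -0.58. The values of Mt2, Mt4 and Mt3 were 3-array values. In the order Mt2, Mt4, Mt1 and Mt3 the values were 4.46, 3.12, 3.94 and -0.08 in G37L, 1.67, 1.02, 1.48 and 0.09 in A34, and 4.21, 2.80, 2.74 and 0.02 in DTrsp. Mt1, Mt2 and Mt4 thus passed 2-fold in each of the 4 columns, with A34 the lowest. Because the columns may share control samples, they may not be independent observations. Metallothioneins are similar in sequence, so cross-reaction between probes is possible, and whether the Mt4 probe reads Mt4 was not tested.

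The promoters of these genes are shown because Mt1, Mt2 and Mt4 were high together. Metal response elements, bound by the zinc sensor MTF1, were searched as TGCACNC or TGCGCNC on both strands in the 250 bases before to 50 bases after each start, from RefSeq on GRCm38.p6. All lie on the plus strand, Mt1 at chr8:94178839-94179138, Mt2 at chr8:94172368-94172667, Mt4 at chr8:94136954-94137253 and Mt3 at chr8:94152357-94152656. Capitals mark the matches, read as they stand or as the reverse complement.
Mt1: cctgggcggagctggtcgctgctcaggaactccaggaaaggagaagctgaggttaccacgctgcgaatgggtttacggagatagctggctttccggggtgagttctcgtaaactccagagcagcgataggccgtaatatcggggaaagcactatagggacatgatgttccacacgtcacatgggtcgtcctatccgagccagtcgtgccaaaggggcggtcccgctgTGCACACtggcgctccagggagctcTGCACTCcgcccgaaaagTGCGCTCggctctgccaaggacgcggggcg
Mt2: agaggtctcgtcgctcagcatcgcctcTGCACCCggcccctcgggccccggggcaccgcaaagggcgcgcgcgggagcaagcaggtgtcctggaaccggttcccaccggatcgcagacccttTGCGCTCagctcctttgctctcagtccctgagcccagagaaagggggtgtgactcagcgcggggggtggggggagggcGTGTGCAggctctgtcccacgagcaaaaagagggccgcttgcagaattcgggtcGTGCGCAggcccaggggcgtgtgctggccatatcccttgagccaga
Mt4: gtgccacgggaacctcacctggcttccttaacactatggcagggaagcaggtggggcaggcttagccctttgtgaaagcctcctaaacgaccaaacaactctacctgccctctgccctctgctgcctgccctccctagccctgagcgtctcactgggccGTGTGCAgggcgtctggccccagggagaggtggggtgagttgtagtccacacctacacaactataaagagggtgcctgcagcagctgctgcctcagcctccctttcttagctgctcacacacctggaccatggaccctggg
Mt3: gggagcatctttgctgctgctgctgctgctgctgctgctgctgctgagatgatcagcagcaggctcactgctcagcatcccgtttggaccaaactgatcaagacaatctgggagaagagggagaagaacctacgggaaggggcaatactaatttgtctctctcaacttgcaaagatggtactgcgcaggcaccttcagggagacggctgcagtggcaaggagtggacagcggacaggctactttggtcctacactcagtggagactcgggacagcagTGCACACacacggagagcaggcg
Mt1 held 3 matches, Mt2 4, Mt4 1 and Mt3 1. Of all 32851 promoters in the table, 25.7% held at least 1 match and 1.97% held 3 or more. A match is a run of letters and not evidence of binding.

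Other genes of zinc handling did not lie at the level of the metallothioneins. Of 9 measured genes of a list of zinc transporters and MTF1 targets, 2 were higher and 0 lower, with a median of 0.09, or -0.11 over 3-array values. The higher ones were the zinc importer Slc39a10, a 2-array value of 1.24 beside 1.22 in G37L, and the haem oxygenase Hmox1 at 1.09. Slc30a1, the zinc exporter that MTF1 is known to induce, was at 0.12, with probes at -0.25 and 0.49. Mtf1 itself was at -0.24.

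Phase II genes of detoxification had no common direction in G37H, with 28 above 0 and 27 below. Of the 62 listed targets of NRF2 and other phase II genes, conjugating and reducing enzymes of xenobiotic defence, 55 were measured, of which 4 were higher and 0 lower, with a median of 0.01. Gstp3, a glutathione transferase of the pi class, was the highest gene of the whole column. Its 3-array value of 4.89 is a 29.7-fold ratio, beside 3.63 in G37L, 1.12 in A34 and 0.58 in DTrsp. Its close relative Gstp1 was at -0.06. Probes of the Gst families can cross-react. The other higher members were the carboxylesterase Ces1g at 1.59, Hmox1 at 1.09 and Ugt3a1 at 1.07. Ces1g was at -1.16 in G37L and 2.88 in DTrsp.

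Hmox1 and Ugt3a1 were short of 2-fold centred on abundant transcripts, at 0.99 and 0.97. Of other known targets of NRF2, Gclc, the catalytic subunit of glutathione synthesis, was at 0.09 and the quinone reductase Nqo1 at -0.48, while they were at 2.46 and 1.14 in DTrsp. Nfe2l2, the gene of NRF2, was at -0.79, with probes at -1.13 and -0.46. Gsta4 was at 0.79 and Gstm2 at -0.85, against 3.04 and 1.15 in DTrsp. The median over the 55 genes was -0.28 in G37L, 0.19 in A34 and 1.15 in DTrsp. A list of 26 measured antioxidant genes, among them peroxiredoxins and glutaredoxins, had a median of 0.00, or 0.13 over 3-array values, and 17 heat shock genes had one of 0.06. Neither list had a member past 2-fold. The small heat shock protein Hspb1 was at 0.77, and the glutaredoxin Glrx at 0.68.

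Among cytochrome P450 genes of families 1 to 3, which oxidise drugs and steroids, 2 of 30 measured were higher and 1 lower, with a median of 0.28. Of the 30, 24 were above 0 and 6 below. Cyp2b10, the classical target of the receptor CAR, was at 2.84. All 3 of its probes had 3-array values, between 2.50 and 3.21. It was at 1.37 in G37L, 0.54 in DTrsp and -0.97 in A34. Cyp2c70, an enzyme of bile acid synthesis in mice, was at 1.59 and Cyp2j6 at -1.02. The 1 lower gene of 30 is 3.33%, against 3.1% over all genes, and centred on the column median Cyp2j6 was at -0.91 and 0 were lower. Other CAR and PXR targets did not share the level of Cyp2b10. Of 21 measured, Cyp2b10 was the single higher one and the organic anion transporter Slco1a4, at -1.04, the single lower one, although its probes were apart at -1.87 and -0.20. Centred on the column median it was at -0.92, short of 2-fold. Cyp2c55 was at 0.96, Cyp3a11 at 0.38 and Nr1i3, the gene of CAR, at 0.27. Sulfotransferases and other conjugating enzymes had a median of -0.21 over 14 measured genes, with none past 2-fold.

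Acute phase genes, plasma proteins that hepatocytes release in inflammation, lay above wild type. Of 32 measured of 41, 30 were above 0, 8 were higher (25%) and 1 lower (3.12%), and the median was 0.70. The highest was A2m at 3.24, a broad protease inhibitor, of unknown array number. It was at 2.02 in G37L and below 0 in A34 and DTrsp, at -0.80 and -1.38. Serum amyloid genes followed, with Saa1 at 2.27, Saa4 at 1.56, Saa2 at 1.39 and Saa3 at 1.11. They lie next to each other in the genome, and the near-identical Saa1 and Saa2 may not be told apart by their probes. Serpina3n, a protease inhibitor, was at 1.65, the pentraxin Apcs at 1.18 and Orm1 at 1.17. Hamp2, a relative of the iron hormone hepcidin, was at -1.20.

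Most of the acute phase genes named here had a higher value in G37L. Saa2 was at 4.79 there, Saa1 at 4.31, Saa3 at 3.61, Apcs at 3.35 and Serpina3n at 2.95. The iron-binding Lcn2 was at 0.66 in G37H and 4.47 in G37L. Haptoglobin (Hp) was at 0.12 in G37H, with both probes on 3-array values, and at 1.63 in G37L. Fgb, a fibrinogen chain, was at 0.26 and 1.51. A2m was the exception among those named, at 3.24 in G37H and 2.02 in G37L. List medians were 1.56 in G37L with 21 higher, 0.41 in A34 with 3 and 0.40 in DTrsp with 3. The G37H and G37L columns were not tested against each other.

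Plasma protein genes that are known to fall in inflammation had a median of 0.54 over all 12, with 9 above 0 and 3 below, 0 higher and 1 lower. Over the 7 with 3-array values the median was 0.40. Transthyretin (Ttr) and albumin (Alb) were at 0.72, Apoa1 at 0.70 and transferrin (Trf) at 0.64. Serpina7, the thyroxine-binding globulin, was at -1.38, while it was at 1.88 in G37L, -1.44 in A34 and 1.70 in DTrsp. Serpina6, which carries corticosteroids, was at -0.56 and Ttpa, chosen after its value was seen, at -0.09. Complement components of hepatocytes had a median of 0.25 over 21 genes, coagulation factors one of 0.03 over 18, and interferon response genes one of 0.10 over 31, each with none past 2-fold. Over 3-array values the interferon median was -0.01. Endoplasmic reticulum chaperones and other unfolded protein response genes had a median of 0.18 over 30 genes with none past 2-fold, against 0.91 and 12 higher in G37L. The main chaperone Hspa5 was at 0.00 in G37H and 1.78 in G37L, Creld2 at 0.62 and 3.11, Manf at 0.39 and 2.35, and Hyou1 at -0.63 and 1.62.

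Markers of Kupffer cells and macrophages, the resident phagocytes of liver, lay mostly above wild type. Of 32 measured of 35, 28 were above 0, 6 were higher (18.8%) and 0 lower, with a median of 0.36. The complement receptor Vsig4 was at 1.56, the antigen-presenting H2-Aa at 1.49, the perforin-like Mpeg1 at 1.36, the invariant chain Cd74 at 1.25, the IgG receptor Fcgr1 at 1.24 and the protease Ctss at 1.01, or 0.91 centred on abundant transcripts. The probes of Cd74 were close, at 1.23 and 1.27. Clec4f, a lectin of Kupffer cells, was at 0.91 and Adgre1, the F4/80 antigen, at 0.58. The 4 members below 0, chosen after their values were seen, were Marco at -0.35, Spi1 at -0.35, Timd4 at -0.29 and Cybb at -0.21. In bulk liver, more cells of a type and more RNA per cell cannot be told apart, and likewise for less. The list median was 0.46 in G37L, 0.51 in A34 and 0.03 in DTrsp. Acute phase genes also lay mostly above wild type in G37H. With 1 averaged column, whether these markers and the acute phase genes move together cannot be seen, and it was not tested.

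Other cell types had fewer measured markers. Neutrophil markers had a median of 0.66 over 5 measured of 14, and none past 2-fold. S100a8 was at 0.82, S100a9 at 0.12 and Csf3r at -0.60, and the median is the value of Lcn2, which is also an acute phase gene. Over the 2 with 3-array values it was 0.03. Lymphocyte markers had a median of -0.32 over 6 of 23. Without the probes of unknown array number, which leaves Cd2 at 0.93 and the immunoglobulin gene Igkc at -0.40, the lymphocyte median turned to 0.27. Endothelial markers had a median of -0.03 over 16 genes but 0.40 over the 7 with 3-array values. Hepatocyte markers had a median of 0.21 over 24, erythroid genes one of 0.11 over 7, and cholangiocyte markers one of -0.16 over 2 of 12. Of 24 stellate cell and matrix genes 1 was higher and 2 lower, with a median of 0.03. Desmin (Des) was at -1.45 and lumican (Lum) at -1.41, while the collagen crosslinker Loxl2 was at 1.12 in G37H and -2.16 in G37L. These 3 values came from single probes of unknown array number, and Col1a1 was at -0.20.

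**Figure D3:**
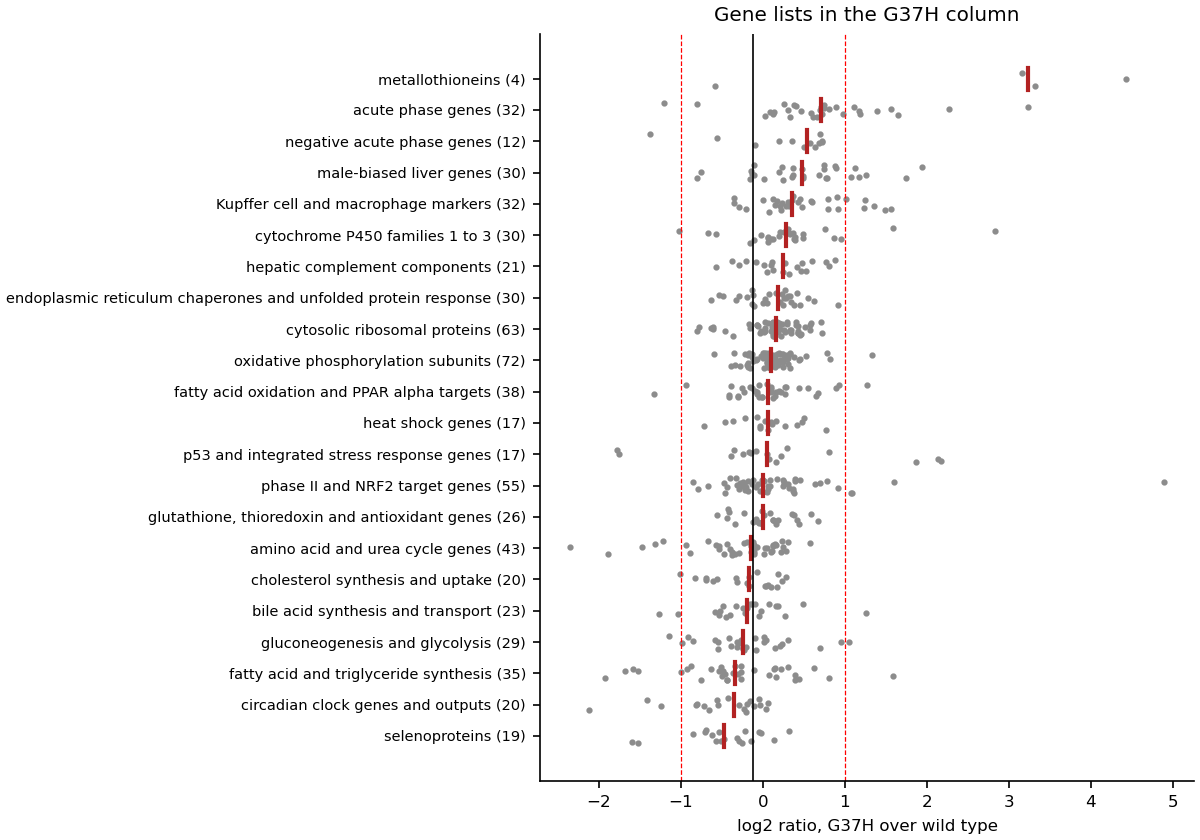
Log2 ratio of G37H over wild type (x axis) for the measured members of 22 gene lists, 1 grey point per gene, with the list median as a red bar, the number measured in brackets, the median of all genes as a black line and 2-fold dashed. Metallothioneins (3.24), acute phase genes (0.70) and negative acute phase genes (0.54) have the highest medians shown, and selenoproteins (-0.47) and circadian clock genes (-0.36) the lowest.

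Genes of fatty acid and triglyceride synthesis held some of the lowest values of the column. Of 35 measured of 39, 5 were lower (14.3%) and 1 higher (2.86%), with a median of -0.34. The list had 23 members below 0 and 12 above, against 61.6% of all genes below 0. The fatty acid transporter Cd36 was at -1.92, a 2-array value, beside -1.63 in G37L, -1.23 in A34 and 2.41 in DTrsp. Srebf1, the regulator of lipogenesis, was at -1.68, beside -1.80 in G37L. The nuclear receptor gene Pparg was at -1.59, Acly, which supplies cytosolic acetyl-CoA, at -1.53 and Aacs, which activates acetoacetate, at -1.0, or -0.89 centred on the column median. Fatty acid synthase (Fasn) was at -0.63 and Gpam, the first enzyme of glycerolipid synthesis, at -0.93. Insig2, which retains the SREBP precursors in the endoplasmic reticulum, was the higher one at 1.59. All 4 of its probes had 3-array values, from 1.19 to 2.23, and it was at 1.94 in G37L. Members above 0 included, chosen after their values were seen, Acacb at 0.80, Elovl1 at 0.63, Elovl5 at 0.44, Dgat2 at 0.39 and Fads1 at 0.39. Over the 19 members with 3-array values alone the list median was -0.16. Of these, 1 was higher, Insig2, and 1 lower, Aacs. Cd36 and Acly had no 3-array value and so could neither pass nor fail on such values. Srebf1 and Pparg had no 3-array value past 2-fold.

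Cholesterol synthesis genes had a median of -0.17 over 20 genes, with 1 lower and 0 higher. The lower one was Fdps, a prenyl transferase, at -1.01, with 3 probes between -1.28 and -0.76. Centred on the column median it was at -0.90, and 0 genes of the list were lower. Sqle was at 0.03 in G37H, 1.5 in G37L and -1.39 in A34. Fatty acid oxidation genes had a median of 0.07 over 38 genes, with 1 on each side. Acot1, a thioesterase, was at 1.27 and the fatty acid hydroxylase Cyp4a14 at -1.32, while its relative Cyp4a10 was at 0.93 and Cpt1a, the carnitine transferase that controls entry into mitochondria, at -0.38. Cyp4a14 was at -1.63 in G37L, -3.10 in A34 and 2.10 in DTrsp.

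Apoa4, an apolipoprotein of triglyceride-rich particles, was the lowest gene of the whole column. Its probes were at -2.81 and -2.47, with a mean of -2.64, which is 6.25-fold lower. In G37L it was at -0.61, in A34 at -0.47 and in DTrsp at 0.39. It was the single member past 2-fold among 23 measured apolipoproteins and lipoprotein genes, whose median was 0.10. Apoe at 0.72 and Apoc3 at 0.68 were the next farthest from 0 after it, with Apoa1. Among bile acid genes, with a median of -0.20 over 23, the oxysterol hydroxylase Cyp7b1 was higher at 1.26, and the nuclear receptor gene Nr0b2 (SHP) at -1.27 and Slco1a4 were lower. Cyp7a1, the rate-limiting enzyme of the classical pathway, was at -0.24.

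Of 43 measured amino acid and urea cycle genes, 5 were lower (11.6%) and 0 higher, with a median of -0.14. The lowest was Cth. This gene, the lyase that makes cysteine in transsulfuration, was at -2.35, with probes at -2.57 and -2.13, and lay at -2.47 in G37L, -1.07 in A34 and 0.17 in DTrsp. Cbs, the enzyme before it, was at -1.32, with probes at -1.41 and -1.23, beside -0.71 in G37L and 0.71 in A34. Csad, which leads from cysteine to taurine, had a 3-array value of -1.48. Other enzymes of sulfur amino acids were closer to 0, with Gnmt at -0.33, Bhmt at 0.22 and, chosen after their values were seen, Cdo1, the step before Csad, at 0.15, Mat1a at 0.24 and Bhmt2 at 0.11. The ornithine transferase Oat had a 3-array value of -1.89, beside -1.34 in G37L, and glutamine synthetase (Glul) was at -1.21.

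Glucose metabolism genes had a median of -0.24 over 29 measured of 39, with 1 on each side. Glucose-6-phosphatase (G6pc), the last step of glucose release, had a 3-array value of -1.15, beside -0.99 in G37L and -1.02 in A34. Pfkfb3, a regulator of glycolysis, was at 1.06 with probes at 1.04 and 1.08, or 0.96 centred on abundant transcripts. Pck1 was at 0.23, Gys2, the liver glycogen synthase, at -0.92 and the insulin-suppressed Igfbp1 at -0.85.

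Genes of the circadian clock and its outputs were mostly below wild type. Of 20 measured of 26, 2 were above 0, 3 were lower (15.0%) and 0 higher, with a median of -0.36. Rgs16, a regulator of G protein signalling with a daily rhythm in liver, was at -2.12, beside -2.80 in G37L. Dbp, a direct clock output, had a 3-array value of -1.42, while it was at -0.01 in G37L, 0.56 in A34 and 0.51 in DTrsp. The repressor Bhlhe40 was at -1.24, Per1 at -0.82, Nr1d2 at -0.72, Nr1d1 at -0.66 and Per2 at -0.56. The 3 probes of Nr1d1 lay between -1.06 and 0.06. No source used here gives the hour of tissue collection, and its part in these values was not tested.

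Genes known to be higher in male than in female liver had a median of 0.48 over 30 measured of 38, with 6 higher (20.0%) and 0 lower, although all animals were male. Serpina4-ps1 was at 1.94, the odorant-binding Obp2a at 1.74, Cyp7b1 at 1.26, Cspg5 at 1.17, Socs2, a feedback inhibitor of growth hormone signalling, at 1.12 and Ugt2b38 at 1.07, or 0.97 centred on abundant transcripts. Hsd3b5, a steroid dehydrogenase that depends on growth hormone, was at -0.76, the major urinary protein gene Mup2 at 0.79 and Igf1 at 0.35. The list median was 0.27 in G37L, 0.51 in A34 and -0.23 in DTrsp. Female-biased genes had a median of -0.03 over 15 measured of 37. The neurotrophin receptor Ntrk2 was higher at 2.09, and Cd36, Rtn4 at -1.23 and Hamp2 were lower.

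Stress and growth genes included some of the largest ratios in both directions. Of 17 measured p53 and integrated stress response genes 3 were higher and 2 lower, with a median of 0.06, or -0.09 over 3-array values. The cell cycle inhibitor Cdkn1a (p21) was at 2.17, with probes at 1.90 and 2.44, while it was at -0.66 in G37L, 0.16 in A34 and 0.13 in DTrsp. Myc was at 2.14 and Gadd45g, a 3-array value, at 1.87. Atf5 had a 3-array value of -1.77 and the cell death gene Bbc3 (PUMA) was at -1.75, while Trib3, a target of the integrated stress response, was at -0.35. Among proliferation genes, with a median of 0.02 over 24, the cyclins Ccna2 at 1.49 and Ccnd1 at 1.17 were higher, the latter with 3 probes between 0.50 and 1.91. Among haem and iron genes, with a median of 0.07 over 29, the ferritin receptor Scara5 at 1.58 and Hmox1 were higher. Hamp2 and Ireb2, the iron regulatory protein gene, at -1.01, were lower there, Ireb2 being at -0.90 centred on the column median, and hepcidin (Hamp) was at 0.71.

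The lists used for centring, called abundant transcripts here, had medians near 0. Their abundance was not measured, and they leave out hepatocyte markers such as Alb at 0.72. Those markers had a median of 0.21, with 16 above 0 and 8 below. Ribosomal protein genes had a median of 0.17 over 63, oxidative phosphorylation subunits one of 0.10 over 72 with Uqcrq higher at 1.33, proteasome subunits one of -0.06 over 35 and reference genes one of -0.12 over 15.

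Several of the highest and lowest genes belonged to none of these lists. Cap1, an actin regulator, was at 3.11, beside 3.18 in G37L, 2.85 in A34 and 0.33 in DTrsp. Abhd1 was at 2.37, with probes at 1.51 and 3.23, Bcl7c, a chromatin remodelling subunit, at 2.26, the transcriptional repressor Bcl6 at 2.10, Serpina11 at 2.04 and Fkbp5, an immunophilin of the glucocorticoid receptor complex, at 1.92. On the low side, Slc25a17, the peroxisomal nucleotide carrier, had a 3-array value of -2.52, the ganglioside synthase B4galnt1 one of -2.18 and Gas1 one of -1.80. Micos10 was at -2.09, Ifi205 at -2.08 and the RNA helicase Ddx6 at -1.91, with probes at -2.13 and -1.69. Of the 30 highest genes 26 had 1 probe and 13 a 3-array value, and of the 30 lowest 26 and 10.

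**Figure D4:**
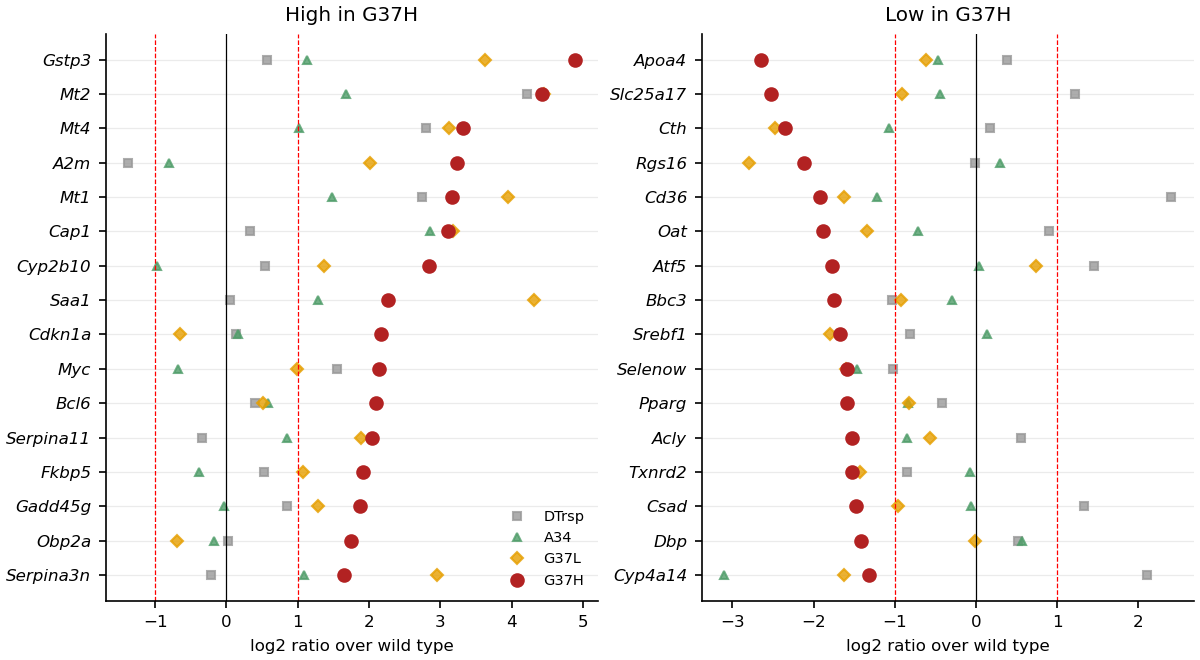
Log2 ratio over wild type (x axis) of 16 genes high in G37H (left) and 16 low in G37H (right), with G37H as red circles, G37L as orange diamonds, A34 as green triangles and DTrsp as grey squares, each point 1 averaged value and dashed lines at 2-fold. Mt2 and Mt1 lie past 2-fold in all 4 columns, Cdkn1a is at 2.17 in G37H and between -0.66 and 0.16 in the other columns, and Cd36 and Cyp4a14 lie left of 0 in the transgenic lines and right of it in DTrsp.

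Where a gene had more than 1 probe, the probes often differed. Of 1791 genes with 2 probes, 55 had a probe at least 2-fold higher, and in 10 of these (18.2%) the other probe passed too. A probe at least 2-fold lower occurred in 115 genes, and in 9 (7.83%) both passed. The other probe was above 0 in 29 of the 55 and below 0 in 88 of the 115, and none of the 1791 genes had a probe past 2-fold on each side. The median difference between the probes of a gene was 0.30, and 10% of genes differed by over 0.87. The share of genes counted was higher among genes with 1 probe, at 3.51% higher and 3.80% lower, than among genes with 2 or more, at 0.704% and 1.12%. Among all genes with several probes, 12 had every probe at least 2-fold higher and 10 every probe lower. The farthest from 0 were Cyp2b10, Apoa4, Abhd1, Cth, Cdkn1a, Ddx6, Cyp2d13 at 1.81, Vnn3 at -1.66, Insig2, Ctbp2 at 1.38, Cbs and Cd74. Genes read by many probes give the spread of repeated probes within the column. B2m had a mean of 0.43 with an SD of 0.28 over 67 probes, Actb 0.27 with 0.26 over 31, and, chosen after their values were seen, Hprt 0.07 with 0.26 over 54 and Gapdh -0.09 with 0.16 over 30. These SDs are over probes of the same arrays and not over animals.

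**Figure D5:**
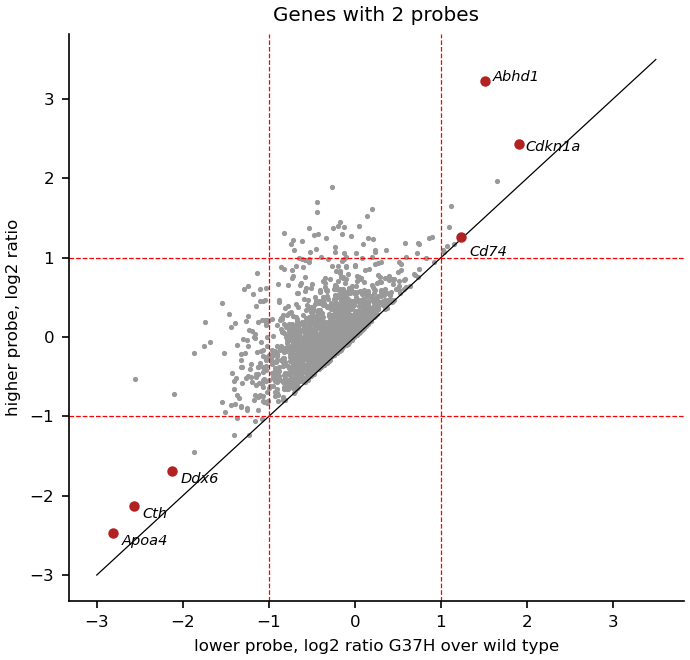
Log2 ratio of G37H over wild type of the lower probe (x axis) against the higher probe (y axis) for the 1791 genes with 2 probes, 1 point per gene, with equal values on the black line and 2-fold dashed. The 10 genes past 2-fold higher by both probes lie at the upper right, among them Abhd1, Cdkn1a and Cd74 (red), and the 9 lower by both at the lower left, among them Apoa4, Cth and Ddx6.

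Genes that neighbour each other were also set side by side, chosen after their values were seen. The run of Saa3, Saa4, Saa1 and Saa2 was higher throughout. In the serpin cluster, Serpina11 at 2.04 and Serpina4-ps1 at 1.94 were higher, and Serpina12 between them was at -1.58. Of the interleukin receptor genes, Il1r2 was at 1.62 and Il1r1 at 1.38, while Il1rl2 was at -1.33.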

How the data were processed

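Liver RNA was extracted with Trizol and 15 µg was copied into cDNA with oligo-dT, per the labels' protocols. The deposited values are log2 ratios as read here, averaged by the authors over replicates. No source used here gives the background correction, normalization or spot filter. All 15478 probes had a value. The platform annotation named 12984 through gene identifiers matched to the GRCm38.p6 gene table, and 63 kept its own symbol. The 110 probes with several genes and 2321 not listed stayed unnamed. Of these 2431, 116 were at least 2-fold higher and 104 lower. Probes were averaged per gene. No statistical test was possible on 1 averaged column, and the number of arrays limits the precision.

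The members and the 44 gene lists were chosen with earlier results of these data known, and the promoter motifs with these values known. Named genes are the 30 highest and 30 lowest (predicted or receptor genes may be skipped), fixed genes of each list, the 8 members of each list farthest from 0, and the 12 genes farthest from 0 whose 2 or more probes all passed 2-fold on one side. Others are said to be chosen after their values were seen. Alternatives were other centrings, thresholds of 1.5-fold and 3-fold, other probe rules, natural logarithms, list means, and values averaged over 2 or more arrays or, chosen after seeing the data, over 3. Counts were called moved beyond 1.5 times and medians beyond 0.1. The reading of decimals and the 2-fold count of higher probes were tested on simulated data. The averaging per gene and the list steps were not. Python 3.11.15, pandas 2.3.3, numpy 2.4.6 and matplotlib 3.10.9 were used.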

Additional observations from a re-analysis of the deposited data

Results flagged for a closer look

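Of the 374 named genes, those whose averaged value passed 2-fold in G37H and passed it the other way in another line are given here. The remaining genes were not searched in this way, so this is not a full list over all genes. The differences were not tested, since each line has 1 averaged value.

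Against DTrsp, genes high in G37H and low in DTrsp were A2m at 3.24 and -1.38, Cypt2 at 1.91 and -1.12, Doc2a at 1.78 and -1.01, Scara5 at 1.58 and -2.31, Cyp7b1 at 1.26 and -1.08, and Pfkfb3 at 1.06 and -1.06. Genes low in G37H and high in DTrsp were Slc25a17 at -2.52 and 1.22, Cd36 at -1.92 and 2.41, Atf5 at -1.77 and 1.45, Tceal8 at -1.68 and 1.85, and Csad at -1.48 and 1.33. The same held for Serpina7 at -1.38 and 1.70, Cyp4a14 at -1.32 and 2.10, Rtn4 at -1.23 and 1.24, and Hamp2 at -1.20 and 1.71.

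Against A34, the IgG receptor gene Fcgr1 was at 1.24 in G37H and -1.55 in A34. Against G37L, which carries the same mutant tRNA in fewer copies, Ces1g was at 1.59 in G37H and -1.16 in G37L, Loxl2 at 1.12 and -2.16, and Serpina7 at -1.38 and 1.88. The G37H values of Fcgr1, Ces1g, Loxl2 and Serpina7 came from single probes of unknown array number. Genes outside the 374, chosen after their values were seen, included reversals with 3-array values in G37H. Examples against A34 were Serpina12 at -1.58 in G37H and 1.65 in A34, and Depp1 at -1.49 and 1.03. Examples against G37L were Elac1 at 1.21 in G37H and -1.28 in G37L, and Rnf186 at 1.11 and -1.57.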

How the results depend on the processing

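No paired analysis was possible because the replicates were averaged before deposit, and for the same reason no replicate could be left out in turn. The genes at least 2-fold higher in G37H, 258 as deposited, became 536 with values read as natural logarithms, 134 over values averaged over 2 or more arrays, 47 over 3 arrays, 678 at 1.5-fold and 51 at 3-fold. The genes at least 2-fold lower in G37H, 288 as deposited, became 182 centred on the column median, 827 with natural logarithms, 131 over 2 or more arrays, 63 over 3 arrays, 1214 at 1.5-fold, 36 at 3-fold and 441 with probes counted singly.

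Centred on the column median and on abundant transcripts, the list medians were -0.35 and -0.57 for selenoproteins, 0.12 and -0.10 for phase II genes, 0.82 and 0.60 for acute phase genes, 0.48 and 0.26 for macrophage markers, and -0.23 and -0.45 for fatty acid synthesis. With natural logarithms they were -0.68 for selenoproteins, 1.01 for acute phase genes, 0.52 for macrophage markers and -0.50 for fatty acid synthesis. Selenoproteins were at -0.36 with the median of probes, -0.31 over 2 or more arrays and -0.28 over 3 arrays, and fatty acid synthesis at -0.16 over 3 arrays. As means over members, phase II genes were at 0.15 and macrophage markers at 0.48. The lymphocyte median of -0.32 turned to 0.27 over 2 or more arrays. Another centring, threshold or base shifts values by construction, and fewer arrays leave fewer genes, while the cause of the remaining moves was not tested. Of 374 named genes, 5 were short of 2-fold centred on the column median (Aacs, Cyp2j6, Fdps, Ireb2 and Slco1a4) and 11 came past it (C1qc, C9, Cd2, Clec4f, Col4a1, Cyp2c55, Cyp4a10, Cyp4a12a, Gstk1, Pdia6 and Ppp1r3c). Centred on abundant transcripts, 6 were short of it (Ctss, Hmox1, Pfkfb3, Sephs1, Ugt2b38 and Ugt3a1) and 5 came past it (Crat, Got1, Gpam, Gys2 and Ugp2). Over 3-array values the medians of 16 of the 44 lists moved by over 0.1, and those whose sign turned are given with both values in the results. Those not given there were sulfotransferases at -0.33, CAR and PXR targets at 0.17, complement at 0.12, stellate cell and matrix genes at 0.17, female-biased genes at -0.13, circadian genes at -0.47 and stress-related selenoproteins, then Gpx1 alone, at -0.57.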
